A study of Mus musculus with 48 samples.

Results

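CD11B+ cells, which are mainly microglia, were examined at postnatal day 10 (P10) in 6 arrays from pups injected with IL1B, an inflammatory cytokine, and 6 arrays from pups injected with PBS, the saline control. These are 12 of the 48 arrays of the series, chosen by the cell type, stage and treatment named in their titles and by no measured value. All pups were male mice, Swiss per the labels and OF1 per the methods of the study, and no mutation or transgene is named for either group. Both groups received intraperitoneal injections on the same schedule, 2 times a day from P1 to P4 and a last time at P5, with IL1B at 10 ng/g or with PBS alone. Cells were taken at P10, 5 days after the last injection. The free-text description of the P10 samples names P5, and the title, stage and treatment fields were followed here. The labels speak of 6 mice in each group, whereas the methods describe pools of 3 brains without cerebellum and olfactory bulbs, so the number of pups behind an array is not settled. O4+ cells of the oligodendrocyte lineage were removed first with magnetic beads and CD11B+ cells were then taken from the same tissue. CD11B is an integrin chain that microglia share with neutrophils, monocytes and natural killer cells, so the beads may keep any of these. The 12 CD11B+ arrays at P5, from pups killed on the day of the last injection (2 h after it per the labels, at another interval per the methods), and the 12 O4+ arrays at P10 were used for comparison.

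Microglia are the resident macrophages of the brain. IL1B signals through its receptor to NF-kappaB and raises cytokines and chemokines, while interferons act through STAT proteins on the genes of antigen presentation, of the guanylate-binding GTPases and of antiviral defence. In the early postnatal white matter, a subset of microglia carries Clec7a, Itgax, Spp1, Igf1 and Gpnmb, a pattern also known from microglia near damaged myelin.

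Levels are given as log2 signals after quantile normalization over the 24 CD11B+ arrays, and changes as the mean of the IL1B arrays minus the mean of the PBS arrays on that scale, with the standard error (SE). Each array had 52.9% to 60.6% of its probes well above background, and pairs of the 12 arrays correlated at 0.982 to 0.991. The microglia identity list had all 15 genes well above background on every array, and its summed level, the log2 of the linear signals added over the brightest probe of each gene, was 20.55 to 20.67 in the PBS arrays and 20.53 to 20.66 in the IL1B arrays. Csf1r, the receptor that microglia need to survive, read 18.07 to 18.47 with PBS and 17.85 to 18.47 with IL1B. Itgam, the gene of CD11B, has 3 probes that disagree. The brightest had a mean of 16.64 in O4+ cells against 14.47 in CD11B+ cells and so does not follow the sort, and the other probes, whose means were 12.15 and 8.45 in CD11B+ and 7.22 and 5.38 in O4+ cells, had log2 changes of -0.01 and -0.10 with IL1B at P10. The labelled cell type was therefore borne out by its markers.

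The library labelled PBS replicate 6 went against its label. When each array was left out in turn and probes were called among the other 11, PBS replicates 1 to 5 lay at a median position between -0.37 and 0.14 on a scale where 0 is the mean of the other PBS arrays and 1 the mean of the IL1B arrays. IL1B replicates lay between 0.75 and 1.04, and the library labelled PBS replicate 6 at 0.88. Over the 2738 probes called without it, it was nearer to the IL1B mean at 84.1%, inside or past the IL1B range at 75.1%, and inside the range of PBS replicates 1 to 5 at 300 of them. Its score on the first principal component, 34.8, fell among the IL1B arrays (29.1 to 60.0) and apart from PBS replicates 1 to 5 (-77.3 to -26.4). For the O4+ array labelled PBS replicate 6 at P10, the same measure over the 2307 probes called in O4+ cells without it was 0.11, among the -0.20 to 0.33 of the other O4+ PBS arrays, and 26.2% of the probes were nearer to the IL1B mean. Single genes went both ways. Serpina3g read 4.14 there, within the O4+ PBS range of 3.87 to 5.15 and under the O4+ IL1B range of 6.89 to 8.64. Ccl5 in contrast read 7.44, the highest of the O4+ PBS arrays (from 6.735) and inside the O4+ IL1B range of 7.32 to 7.92. Cxcl9 read 5.89, the highest of the O4+ PBS arrays (from 4.83) and inside the overlapping IL1B range of 5.45 to 6.87. The change of Cxcl9 in O4+ cells was not called (0.51, limma adjusted p = 0.242). Most counts and the leading results at P10 are given below over the 12 arrays as labelled and again without the CD11B+ array labelled PBS replicate 6. The comparisons with P5 and with O4+ cells keep that array unless stated, and the reason for its place was not tested.

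**Figure D1:**
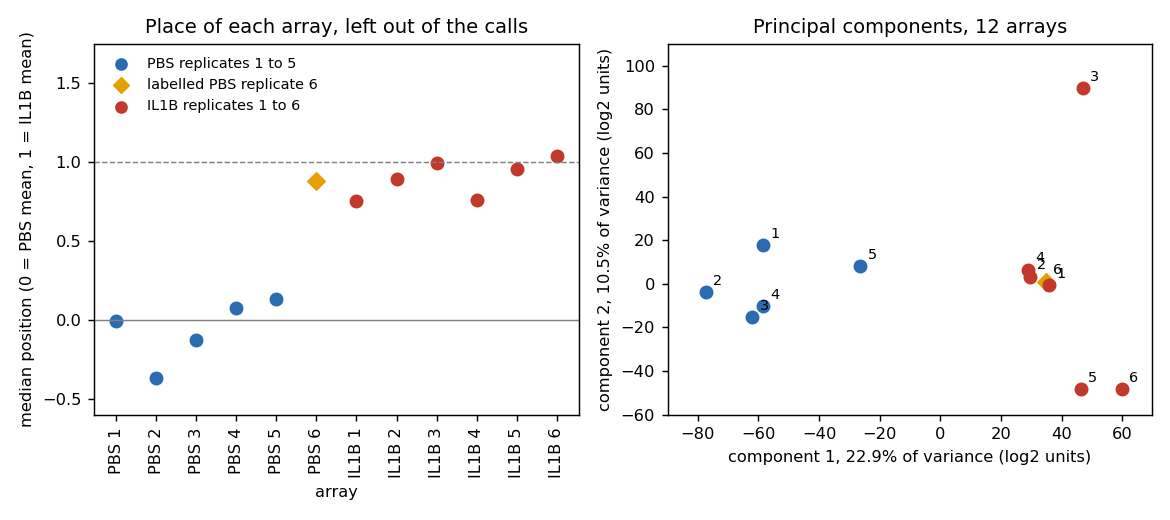
Place of the 12 CD11B+ arrays at P10. Left, the median position of each array over the probes called without it, where 0 is the mean of the other PBS arrays and 1 the mean of the other IL1B arrays; right, the first 2 principal components of the log2 signals, labelled by replicate number. The library labelled PBS replicate 6 (diamond) sits at 0.88 and among the IL1B arrays, and PBS replicates 1 to 5 stay between -0.37 and 0.14.

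The arrays lay on 3 slides. PBS replicates 1 to 4 filled one, PBS replicates 5 and 6 shared another with IL1B replicates 1 to 5, and IL1B replicate 6 lay alone on the last, which was scanned on another day. Treatment was thus partly confounded with slide, and with slide as a block the comparison rests on the shared slide alone. PBS replicate 5 is the remaining control on that slide. It lay outside the range of IL1B replicates 1 to 5, on the PBS side, at 584 of the 605 probes called higher with IL1B (96.5%) and at 557 of the 604 called lower (92.2%), calls into which it had entered. PBS replicate 6, on the same slide, did so at 261 (43.1%) and 349 (57.8%). Over the calls made without PBS replicate 6, PBS replicate 5 lay outside that range at 1290 of 1415 higher (91.2%) and 915 of 1323 lower probes (69.2%).

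A probe was called where limma gave a Benjamini-Hochberg adjusted p under 0.05 and the group medians differed by more than 1.5 times. By this rule 605 of 55681 probes rose with IL1B over the 12 arrays (1.09%) and 604 fell (1.08%). Without PBS replicate 6 the counts were 1415 (2.54%) and 1323 (2.38%), and 1186 of the 1209 calls over 12 arrays were among them. Leaving out any other single array gave between 212 and 558 probes higher and between 199 and 624 lower, with the fewest calls without PBS replicate 2, PBS replicate 3 (229 and 214), PBS replicate 1 (269 and 266) and IL1B replicate 5 (283 and 261). The counts also fell by more than 1.5 times without IL1B replicate 3 (352 and 360), PBS replicate 4 (376 and 391) and IL1B replicate 6 (378 and 374), and for the lower calls without IL1B replicate 2 (394). With slide as a block, 0 probes were called higher and 2 lower by limma, against 2223 and 3389 at an unadjusted p under 0.05. The 2 carry no gene and were well above background on no array. With the block and without PBS replicate 6, 165 (0.296%) and 105 (0.189%) were called. In that fit the contrast rests on PBS replicate 5 alone against IL1B replicates 1 to 5, and this lone array is assumed to vary like the other arrays, from which the spread is taken. The direction held under the block at 1209 of 1209 called probes, with a median of 0.69 of the unblocked change. Without PBS replicate 6 it held at 1201 of 1209, with a median of 1.05. The arrays of the shared slide had entered these calls, so the held direction is not independent of them. Groups did not overlap at 1150 probes that were higher with IL1B (2.07%) and 1014 that were lower (1.82%). With 1 probe per gene, 337 of 22329 genes were called higher (1.51%) and 274 lower (1.23%), and 839 (3.76%) and 523 (2.34%) without PBS replicate 6.

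Among genes well above background on all 12 arrays whose groups did not overlap, the 12 largest rises by ratio of medians were headed by H2-Ab1, Cd69, Hcar2 and Clec7a. H2-Ab1, the beta chain of an MHC class II molecule, read 11.06, 11.42 and 12.74 (lowest, median and highest) with PBS and 12.84, 13.42 and 13.73 with IL1B at the probe at chr17:34406296-34406355 (mm9). It rose 4.01-fold by the ratio of medians, a log2 change of 1.79 ± 0.27 (limma adjusted p = 0.0137), or 2.02 ± 0.17 without PBS replicate 6. Cd69, an early activation antigen of lymphocytes and other leukocytes, read 4.24, 4.83 and 6.10 with PBS and 6.30, 6.80 and 7.18 with IL1B, a log2 change of 1.78 ± 0.28 (limma adjusted p = 0.0139), or 2.01 ± 0.19 without PBS replicate 6. In both, the top PBS value belonged to PBS replicate 6 and lay just under the lowest IL1B array. Hcar2, the receptor of niacin and beta-hydroxybutyrate, read 5.22, 5.47 and 7.01 with PBS and 7.14, 7.28 and 7.59 with IL1B, a log2 change of 1.63 ± 0.26 (limma adjusted p = 0.0145), or 1.89 ± 0.10 without PBS replicate 6. Clec7a, or dectin-1, a receptor of beta-glucan, read 10.39, 10.57 and 11.64 and 11.85, 12.34 and 12.92, a log2 change of 1.61 ± 0.24 (limma adjusted p = 0.0137), or 1.80 ± 0.19 without PBS replicate 6. PBS replicates 1 to 5 of Clec7a spanned no more than 10.39 to 10.71, while PBS replicate 6 read 11.64. Axl, a receptor kinase for the clearance of dying cells, read 9.14, 9.49 and 10.68 with PBS and 10.71, 10.99 and 11.23 with IL1B, a log2 change of 1.37 ± 0.22 (limma adjusted p = 0.0146), or 1.58 ± 0.10 without that array. P2ry2, a receptor for extracellular ATP and UTP, read 6.91, 7.09 and 8.23 and 8.50, 8.79 and 8.96, a log2 change of 1.51 ± 0.20 (limma adjusted p = 0.0137), or 1.71 ± 0.09 without it. Cd274, the gene of PD-L1, a ligand that restrains T cells, read 7.90, 8.19 and 9.09 with PBS and 9.26, 9.60 and 10.32 with IL1B and rose 2.64-fold (limma adjusted p = 0.0157), with a log2 change of 1.39 ± 0.24, or 1.54 ± 0.21 without PBS replicate 6.

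The others of the 12 largest rises were Tnfaip2, a TNF-induced gene (3.32-fold), Fam20c, a kinase of secreted proteins (3.07-fold), Arl5c, a small GTPase (2.88-fold), Nlrc5 at one of its 2 probes (2.53-fold) and Shtn1 (2.52-fold). With slide as a block, none of these 24 genes, the 12 rises and the 12 falls described further on, was called by limma (adjusted p between 0.282 and 0.470). Each kept its direction and had an unadjusted limma p under 0.05. The direction could not turn, since the block compares arrays of the shared slide and the genes were chosen for groups that do not overlap. The unadjusted p is not independent of that choice either. With the block and without PBS replicate 6, Hcar2 had a log2 change of 1.63 (limma adjusted p = 0.00125) and H2-Ab1 one of 2.25 (limma adjusted p = 0.00629), and 9 of the 24 were called, again with PBS replicate 5 as the lone control on the slide.

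**Figure D2:**
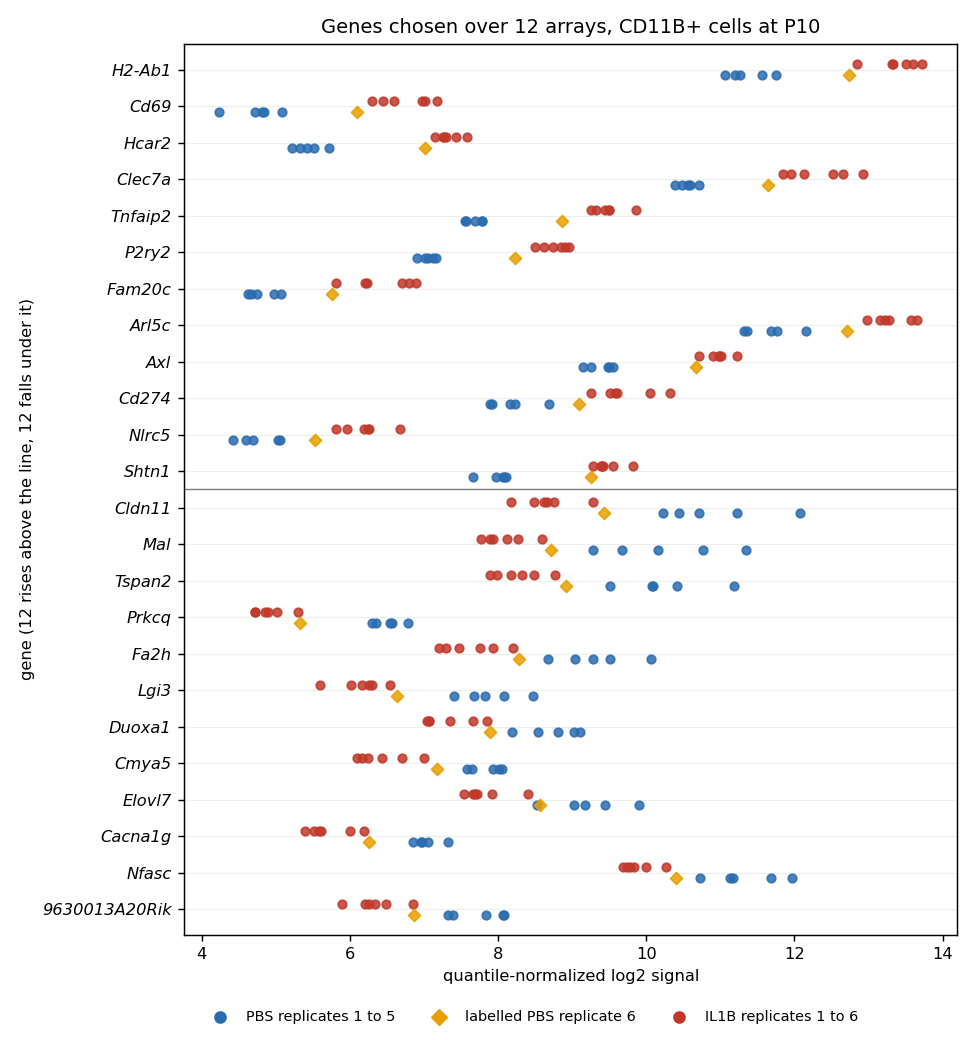
Quantile-normalized log2 signal of the 12 largest rises and the 12 largest falls among genes called over 12 arrays whose groups do not overlap, 1 point per array. In each gene the IL1B arrays (red) lie on one side of the PBS arrays, and the library labelled PBS replicate 6 (orange diamond) is the PBS array nearest to them in all but Elovl7, where PBS replicate 6 is the nearest but one.

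The same rule over the 11 arrays without PBS replicate 6 gave genes with far larger rises, in which that array lay inside or near the IL1B range. Serpina3g, a serpin of activated leukocytes, spanned 4.01 to 4.59 in PBS replicates 1 to 5 and 8.58 to 12.11 in the IL1B arrays, and read 10.02 in PBS replicate 6. Its log2 change was 6.56 ± 0.54 without that array (limma adjusted p = 2.02e-04) and 5.60 ± 1.03 with it (limma adjusted p = 0.0179), a ratio of medians of 103 and 91.8. Gzma, the gene of granzyme A of natural killer and cytotoxic T cells, spanned 5.40 to 6.18 and 10.37 to 11.61 and read 11.49 in PBS replicate 6. Both genes rose far above PBS replicates 1 to 5 in each IL1B array. The Gzma change was 5.44 ± 0.23 without PBS replicate 6 (limma adjusted p = 4.88e-06) and 4.50 ± 0.92 with it (limma adjusted p = 0.0225).

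Chemokines followed. Ccl8 spanned 6.48 to 7.71 in PBS replicates 1 to 5 and 10.14 to 13.27 with IL1B, and read 11.48 in PBS replicate 6, a log2 change of 4.39 ± 0.48 without that array and 3.67 ± 0.81 with it (limma adjusted p = 7.96e-04 and 0.0270). Ccl5, which draws T cells and monocytes, spanned 7.67 to 8.20 and 10.91 to 12.05 and read 11.71 in PBS replicate 6, a change of 3.68 ± 0.21 and 3.05 ± 0.62 (limma adjusted p = 3.07e-05 and 0.0224). Cxcl9, an interferon-gamma-induced chemokine, spanned 5.24 to 5.56 and 7.35 to 10.60 and read 8.25 in PBS replicate 6, a change of 3.33 ± 0.45 and 2.86 ± 0.60 (limma adjusted p = 0.00192 and 0.0245). The 3 chemokines rose in both fits, with IL1B arrays more spread for Cxcl9 and Ccl8 than for Ccl5. Acod1, which makes itaconate, rose 7.18-fold without PBS replicate 6 and 6.14-fold with it. Chil3, a chitinase-like protein of myeloid cells, rose 7.28-fold without that array (limma adjusted p = 0.00159) and was not called with it (limma adjusted p = 0.109). PBS replicate 6 read 11.56 for Chil3, above the IL1B range of 9.28 to 10.97. With slide as a block and without PBS replicate 6, limma called Gzma (adjusted p = 4.55e-04), Ccl5 (0.00287), H2-Q8 (0.0145) and Serpina3g (0.0300) among these 12 rises, a contrast that rests on PBS replicate 5 as the lone control.

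**Figure D3:**
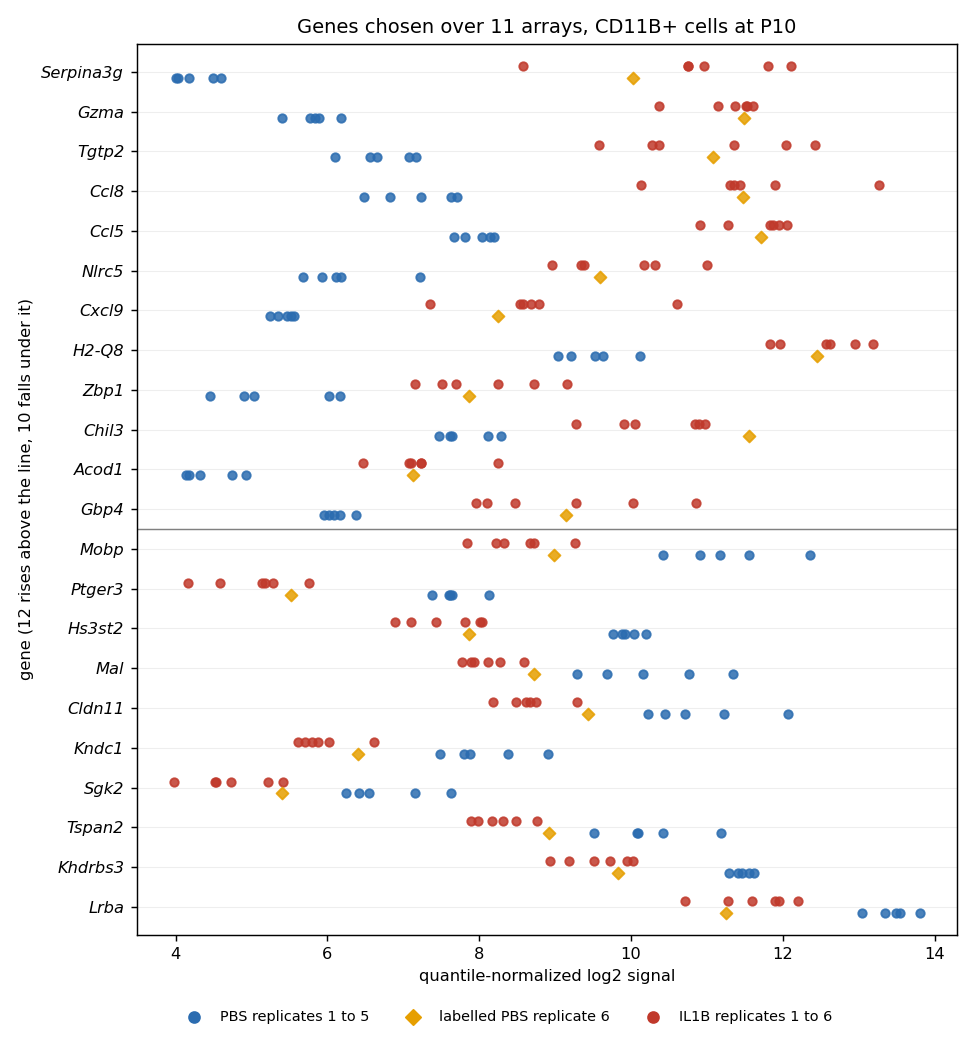
Quantile-normalized log2 signal of the 12 largest rises and 10 of the 12 largest falls chosen without PBS replicate 6, 1 point per array. PBS replicates 1 to 5 (blue) and IL1B arrays (red) do not overlap in any of them, as the rule requires, and the library labelled PBS replicate 6 (diamond) reads 10.02 for Serpina3g, 11.49 for Gzma and 7.86 for Hs3st2, inside the IL1B ranges.

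Class I antigen presentation genes rose in part. Of 24 genes measured, 12 rose and 0 fell, beside 1.51% and 1.23% of all genes, with a median log2 change of 0.75 against 0.00 over all genes, and 15 rose without PBS replicate 6. With slide as a block the median was 0.41, and 0.80 without that array. Nlrc5, the transactivator of class I genes, read 5.68, 6.15 and 9.59 with PBS and 8.95, 9.83 and 10.99 with IL1B at its brighter probe, a log2 change of 3.07 ± 0.64 (limma adjusted p = 0.0238), or 3.63 ± 0.40 without PBS replicate 6. Its PBS replicates 1 to 5 did not pass 7.22, under each IL1B array. H2-K1, a classical heavy chain, read 14.81, 15.02 and 16.02 and 15.78, 16.02 and 16.45, a log2 change of 0.94 ± 0.20 (limma adjusted p = 0.0262). Tap1, of the peptide transporter, read 8.17, 8.22 and 9.32 and 9.08, 9.78 and 9.98, a log2 change of 1.29 ± 0.22 (limma adjusted p = 0.0157). The immunoproteasome subunits Psmb8 and Psmb9 rose by 0.93 and 1.06, and the Qa genes H2-Q6, H2-Q7 and H2-T23 by 1.64, 1.32 and 1.53. These heavy chains are close copies of each other, so probes may read more than 1 of them. B2m, the shared light chain, had a log2 change of 0.45 and did not reach the ratio of 1.5 over 12 arrays, and did without PBS replicate 6 (0.55).

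Of 20 class II genes, 5 rose and 0 fell (7 and 0 without PBS replicate 6), and the list's median was 0.13. The 5 were the chains H2-Ab1, H2-Aa and H2-Eb1, the invariant chain Cd74, and H2-DMa, which helps load peptides. H2-Eb1 read 10.91, 11.87 and 13.82 with PBS and 13.32, 14.43 and 14.64 with IL1B, a log2 change of 2.19 ± 0.44 (limma adjusted p = 0.0210), or 2.56 ± 0.29 without PBS replicate 6. Cd74 read 11.11, 11.57 and 13.23 and 12.65, 13.96 and 14.25, a change of 1.94 ± 0.37 (limma adjusted p = 0.0186), or 2.23 ± 0.27. Ciita, the transactivator of class II genes, read 3.86, 4.43 and 4.99 and 3.68, 4.04 and 4.54, with overlapping groups and a log2 change of -0.27 ± 0.22 (limma adjusted p = 0.534), at a probe well above background on 5 PBS and 2 IL1B arrays. The costimulatory gene Cd86 had a log2 change of 0.03 (limma adjusted p = 0.739). Dendritic cells carry class II as well, and of 14 dendritic markers 5 rose, among them Ccr7, a homing receptor, by 1.26 ± 0.24 (limma adjusted p = 0.0195). The list's median log2 change was 0.45, and Xcr1 and Zbtb46 were not among the called. Its summed level was 17.09 to 17.24 with PBS and 17.01 to 17.11 with IL1B. Siglech, which is also in the homeostatic microglia list, weighs heavily in that sum. Its medians were 16.64 with PBS and 16.43 with IL1B when all 48 arrays were normalized together. In O4+ cells the same probe had medians of 17.00 and 16.84, so it does not follow the sort. The part of such cells in the class II change was not tested.

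Interferon-inducible GTPases, which attack vacuoles of intracellular microbes, had 7 of 16 genes higher and 0 lower, with a median of 0.68, and 8 higher without PBS replicate 6. Tgtp2 read 6.11, 6.88 and 11.08 with PBS and 9.58, 10.95 and 12.42 with IL1B, a log2 change of 3.57 ± 0.83 (limma adjusted p = 0.0320), or 4.29 ± 0.50 without PBS replicate 6. Gbp2 read 8.71, 8.79 and 10.49 and 9.80, 10.91 and 11.83, a change of 1.83 ± 0.40 (limma adjusted p = 0.0268), or 2.12 ± 0.32. The members differed widely. Gbp3, Gbp4, Gbp5, Gbp8 and Gbp11 were the other called genes, while Irgm1 had a log2 change of 0.31 and Iigp1, of the immunity-related family, one of 0.03 (limma adjusted p = 0.254 and 0.962). Of the 32 type I interferon antiviral genes, 2 rose over 12 arrays, Zbp1 and Oas3, and 13 without PBS replicate 6, where the median was 0.78. Over 12 arrays that median was 0.63, and 0.30 with slide as a block. Oas3, an activator of RNA decay, was well above background on 5 IL1B arrays and, among PBS arrays, on PBS replicate 6 alone, and was at least 6.92-fold higher without that array. Irf7 had a log2 change of 1.30 ± 0.39 with PBS replicate 6 (limma adjusted p = 0.0682) and 1.57 ± 0.31 without it (limma adjusted p = 0.0102).

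Promoter sequence was read in RefSeq windows of GRCm38.p6, from 250 bases before to 50 after each start, for rising genes whose families are known for short interferon or class II motifs. The 120 bases before the start are shown for 5 of them, with matched motifs in capitals, and each is written along the strand of its gene. The minus-strand genes are H2-Aa and Tgtp2.
H2-Aa (chr17:34287824-34287943): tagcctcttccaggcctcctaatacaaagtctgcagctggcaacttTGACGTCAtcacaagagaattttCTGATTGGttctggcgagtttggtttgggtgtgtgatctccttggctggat
H2-Eb1 (chr17:34305747-34305866): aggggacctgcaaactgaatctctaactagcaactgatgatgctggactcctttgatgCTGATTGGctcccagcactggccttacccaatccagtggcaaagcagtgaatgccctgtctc
Tgtp2 (chr11:49064213-49064332): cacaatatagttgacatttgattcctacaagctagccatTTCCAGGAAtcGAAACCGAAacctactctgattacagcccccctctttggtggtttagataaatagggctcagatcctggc
Gbp2 (chr3:142620543-142620662): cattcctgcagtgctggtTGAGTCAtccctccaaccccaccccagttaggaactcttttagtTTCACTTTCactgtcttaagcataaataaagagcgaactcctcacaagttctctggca
Serpina3g (chr12:104236027-104236146): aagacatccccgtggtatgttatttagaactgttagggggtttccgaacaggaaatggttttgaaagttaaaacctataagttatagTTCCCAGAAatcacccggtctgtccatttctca
The capitals mark a CRE (TGACGTCA, the form of the class II X2 box) that begins at -74 from the start and a Y box (CTGATTGG) at -51 in H2-Aa, and a Y box at -62 in H2-Eb1. In Tgtp2 they mark a GAS site (TTCNNNGAA) at -81 and an ISRE (GAAANNGAA) at -70, in Gbp2 an AP-1 site (TGANTCA) at -102 and an ISRE, on the other strand, at -58, and in Serpina3g a GAS site at -33. Both strands were searched. Gbp2, Gbp3, Gbp5, Oas3 and Tgtp2, the 5 class II and interferon members with an ISRE among the 8 called ones that had a window (62.5%), stand beside 8.56% of all 32851 windows, and the 2 with a Y box (25.0%) beside 4.10%. A GAS site was held by 2 of the 8 (25.0%) and by 8.30% of all windows, and a CRE by 1 of the 8 (12.5%) and by 1.79%. An AP-1 site was held by 3 of the 8 (37.5%) and by 7.81%. A listed gene counted where any of its windows held the motif, and some have more than 1, whereas the share over all is of single windows. An X box (AACAGATG) and a PU.1 site (GAGGAAGT) were held by 0 of the 8, and by 1.07% and 3.20% of all windows. A kappaB site (GGGANTTTC) was held by 1 of the 8 (12.5%) and by 1.11%. Of the 12 largest rises over 12 arrays, 6 had a window, and 1 of these held an ISRE and 0 a Y box or GAS site. A match is letters only. The windows of H2-Ab1, Cd74, Gbp4, Gbp8, Gbp11 and Zbp1 were not analysed here.

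Genes of white-matter and disease-associated microglia rose in part. Of 35, 12 rose and 0 fell, with a median of 0.36, or 0.29 with slide as a block (16 rose without PBS replicate 6). Besides Clec7a and Axl these included Itgax, the CD11C integrin chain, which read 9.98, 10.16 and 11.20 with PBS and 10.87, 11.63 and 12.37 with IL1B, a log2 change of 1.28 ± 0.31 (limma adjusted p = 0.0384). Gpnmb, a glycoprotein of lysosome-rich macrophages, read 8.41, 9.43 and 10.31 and 9.58, 11.18 and 11.92, a change of 1.67 ± 0.43 (limma adjusted p = 0.0452), or 1.87 ± 0.43 without PBS replicate 6. Its groups overlapped through that array. Lgals3, galectin-3, rose by 1.05 ± 0.26 (limma adjusted p = 0.0413), Csf1, the ligand of Csf1r, by 0.79 ± 0.13 (limma adjusted p = 0.0157) and Ctsz, a lysosomal protease, by 0.60 ± 0.09 (limma adjusted p = 0.0137). Spp1, osteopontin, read 10.20, 10.77 and 11.63 with PBS and 11.19, 12.05 and 13.46 with IL1B and was not called over 12 arrays (1.37 ± 0.42, limma adjusted p = 0.0722), and was without PBS replicate 6 (1.53 ± 0.43, limma adjusted p = 0.0408). Igf1, a growth factor for oligodendrocytes, was likewise not called over 12 arrays at its brightest probe (0.85 ± 0.24, limma adjusted p = 0.0568) and was without PBS replicate 6 (limma adjusted p = 0.0178), and 1 of its 5 probes was called over 12 arrays. Trem2, Tyrobp and Cd68, of the same list, had log2 changes of -0.03, 0.09 and 0.04, and Apoe one of 0.30 ± 0.06 (limma adjusted p = 0.0187), under the ratio of 1.5.

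Complement and Fc receptor genes had 10 of 34 higher and 2 lower (12 and 2 without PBS replicate 6), with a median of 0.27, or 0.09 with slide as a block. C4b, an early complement component, read 9.54, 9.90 and 12.50 with PBS and 11.98, 12.29 and 12.95 with IL1B, a log2 change of 2.15 ± 0.47 (limma adjusted p = 0.0265), or 2.60 ± 0.20 without PBS replicate 6. Cfb, factor B, and C3 rose by 1.68 ± 0.37 and 1.51 ± 0.35 (limma adjusted p = 0.0265 and 0.0336), and Fcgr4, an activating Fc receptor, by 1.40 ± 0.28 (limma adjusted p = 0.0206). In these 4 genes PBS replicate 6 lay inside the IL1B range and above the other PBS arrays. Fcgr1 fell by 0.54 and Tyro3, a relative of Axl, by 0.66 on the log2 scale (limma adjusted p = 0.0377 and 0.0241). The C1q chains, which open the classical pathway, had log2 changes of 0.17 (C1qa), 0.17 (C1qb) and 0.15 (C1qc), and none was called.

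The interleukin 1 system itself had 5 of 27 genes higher and 0 lower (8 higher without PBS replicate 6), with a median of 0.37, or 0.08 with slide as a block. Il1b, the endogenous gene of the injected cytokine, read 11.90, 12.30 and 13.59 with PBS and 13.18, 13.36 and 13.79 with IL1B, a log2 change of 0.94 ± 0.25 (limma adjusted p = 0.0496), or 1.17 ± 0.15 without PBS replicate 6. Il1r2, the decoy receptor, rose by 0.93 ± 0.23 (limma adjusted p = 0.0404) and Irak3, an inhibitor of the pathway, by 0.95 ± 0.19 (limma adjusted p = 0.0225). Casp4, a caspase that senses lipopolysaccharide, rose by 0.97 ± 0.15 and Il1a by 0.66 ± 0.16 (limma adjusted p = 0.0139 and 0.0350). Il1r1, the signalling receptor, had a log2 change of 0.43 ± 0.13 (limma adjusted p = 0.0684). Among 42 cytokines and chemokines, 7 rose and 0 fell, and 13 rose without PBS replicate 6. Besides Ccl5, Ccl8, Cxcl9 and Csf1 these were Tnf, by 0.90 ± 0.18, Osm, oncostatin M, by 0.78 ± 0.11, and Il10, an anti-inflammatory cytokine, by 0.89 ± 0.19 (limma adjusted p = 0.0206, 0.0137 and 0.0247). For Tnf, PBS replicate 6 kept to its label. It read 13.59, inside the range of PBS replicates 1 to 5 (12.87 to 13.89) and under the IL1B range (13.89 to 14.46), which began just above the highest PBS array. Among 33 pattern recognition receptors 6 rose, with the formyl peptide receptors Fpr1 and Fpr2 at 1.25 ± 0.33 and 1.33 ± 0.35 (limma adjusted p = 0.0489 and 0.0466), and of 22 NF-kappaB subunits and feedback genes 1 rose, Bcl3, by 0.75 ± 0.14 (limma adjusted p = 0.0186).

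Few homeostatic genes were called. Of 32, 0 rose and 1 fell, in both fits, with a median of -0.20. The list's summed level was slightly lower with IL1B, at 21.067 to 21.230 with PBS and 20.936 to 21.065 with IL1B, without overlap. The one that fell was Adgrg1, an adhesion receptor of yolk-sac microglia, which read 14.17, 14.56 and 14.76 with PBS and 13.84, 13.95 and 14.14 with IL1B, a log2 change of -0.54 ± 0.09 (limma adjusted p = 0.0162). P2ry12, the ADP receptor of resting microglia, read 15.88, 16.29 and 16.58 and 15.56, 15.87 and 15.89, a change of -0.48 ± 0.11 (limma adjusted p = 0.0329), and Sall1, a transcription factor of microglial identity, one of -0.48 ± 0.12 (limma adjusted p = 0.0414). Both passed the p threshold under a ratio of 1.5, and the IL1B and PBS ranges of P2ry12 met at PBS replicate 6. Tmem119 and Cx3cr1 had log2 changes of -0.22 and -0.18, and neither was called in either fit. Among 32 microglial transcription factors, Batf rose by 1.03 ± 0.15 and Irf1, an interferon-induced factor, by 0.68 ± 0.16, and Ikzf1 fell by 0.56 on the log2 scale (limma adjusted p = 0.0137, 0.0355 and 0.0137).

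Myelin transcripts led the falls. Of 19 structural myelin genes, 0 rose and 9 fell, with a median of -0.96, and 11 fell without PBS replicate 6, with a median of -1.12. With slide as a block the medians were -0.80 and -1.54. Cldn11, a claudin that seals myelin, read 9.43, 10.58 and 12.07 with PBS and 8.18, 8.64 and 9.29 with IL1B, a log2 change of -2.02 ± 0.38 (limma adjusted p = 0.0184), or -2.27 ± 0.32 without PBS replicate 6. Mobp, a basic protein of oligodendrocytes, read 8.99, 11.04 and 12.36 and 7.83, 8.51 and 9.26, a change of -2.39 ± 0.48 (limma adjusted p = 0.0215), or -2.78 ± 0.35. For both, the PBS arrays were widely spread and PBS replicate 6 was the lowest of them. Mal and Tspan2, of the same membranes, fell 3.76-fold and 3.57-fold. Opalin was well above background on 4 PBS arrays and on no IL1B array, and was at least 4.75-fold lower with IL1B, the brighter mean being set against the lowest signal that counts as above background. Mbp, myelin basic protein, has probes that disagree. The probe that was brightest in O4+ cells (16.45) fell by 1.45 on the log2 scale in CD11B+ cells (limma adjusted p = 0.0265), and the probe that was brightest in CD11B+ cells, used for the list, had a change of -0.04.

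Some enzymes of myelin lipids fell as well. Of 18 genes of myelin lipids and glial metabolism, 5 fell and 1 rose (5 and 1 without PBS replicate 6), with a list median of 0.02, or -0.06 with slide as a block. Fa2h, which makes hydroxylated myelin lipids, read 8.28, 9.17 and 10.06 with PBS and 7.20, 7.62 and 8.20 with IL1B, a change of -1.50 ± 0.29 (limma adjusted p = 0.0187), and Ugt8a, of galactolipid synthesis, fell by 1.36 on the log2 scale (limma adjusted p = 0.0210). Elovl7, Enpp6 and Gal3st1 were the others. Of 15 progenitor genes, 2 fell, Bcas1 by 0.74 and Gpr17 by 0.62 (limma adjusted p = 0.0174 and 0.0170). O4+ cells held far more Mobp, which read 16.97 to 17.31 in their PBS arrays, against a median of 11.12 in the CD11B+ ones when all 48 arrays were normalized together. In bulk samples, fewer cells of a type and less RNA per cell cannot be told apart, here and for every list below, and myelin RNA inside microglia cannot be told from that of cells carried along.

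Genes outside the myelin lists also fell. Hs3st2, a heparan sulfate sulfotransferase, spanned 9.76 to 10.19 in PBS replicates 1 to 5 and 6.89 to 8.04 with IL1B, and read 7.86 in PBS replicate 6. Its log2 change was -2.41 ± 0.22 without that array and -2.06 ± 0.38 with it (limma adjusted p = 3.20e-04 and 0.0184). Ptger3, a prostaglandin E2 receptor, spanned 7.38 to 8.12 and 4.16 to 5.76 and read 5.51, a change of -2.65 ± 0.26 and -2.29 ± 0.42 (limma adjusted p = 5.16e-04 and 0.0176). In both, PBS replicate 6 lay in the IL1B range, and with slide as a block and without that array limma called both (adjusted p = 0.0310 and 0.0216), with PBS replicate 5 as the lone control. Khdrbs3, an RNA-binding protein, fell 3.57-fold and 3.51-fold, and Lrba fell 3.32-fold without PBS replicate 6 (limma adjusted p = 0.00219) and was not called with it (limma adjusted p = 0.0579). Prkcq, the kinase PKC theta, read 5.33, 6.45 and 6.79 with PBS and 4.71, 4.88 and 5.31 with IL1B, a change of -1.39 ± 0.22 (limma adjusted p = 0.0139). Cmya5, Duoxa1, Cacna1g, a calcium channel, Nfasc, Lgi3 and the transcript 9630013A20Rik completed the falls over 12 arrays, at 2.75-, 2.76-, 2.59-, 2.53-, 2.91- and 2.52-fold, and Kndc1 and Sgk2 those over 11, at 4.11- and 3.76-fold.

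Markers of other blood and brain cells were called more often without PBS replicate 6, and that array held the highest summed level of several lists. Over all genes 1.51% were higher and 1.23% lower over 12 arrays, and 3.76% and 2.34% without it. Of lymphocyte markers 15.8% were higher over 12 arrays, and of astrocyte and border-associated macrophage markers 6.25%. Neutrophil, mural, erythroid, neuron and endothelial lists had none higher over 12 arrays. Of 19 neutrophil and monocyte markers, 0 rose and 1 fell over 12 arrays, and 13 rose without PBS replicate 6. The summed level of the list was 15.24 to 15.63 in PBS replicates 1 to 5, 16.17 to 17.13 in the IL1B arrays and 17.57 in PBS replicate 6, above each IL1B array. The median log2 change was 0.98 over 12 arrays, 1.37 without PBS replicate 6 and 0.25 with slide as a block. Camp, a granule peptide of neutrophils, spanned 11.16 to 11.91, 12.36 to 13.97 and read 14.29 in these sets, a log2 change of 1.86 ± 0.27 without PBS replicate 6 (limma adjusted p = 0.00272) and 1.40 ± 0.50 with it (limma adjusted p = 0.116). S100a8, of the same granulocytes, changed by 1.39 ± 0.19 without it. Cxcr2, a chemokine receptor of mature neutrophils, instead fell, by 0.67 on the log2 scale (limma adjusted p = 0.0409). Elane and Ccr2 were not called in either fit, at -0.08 and 0.35 over 12 arrays.

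Of 19 lymphocyte markers, 3 rose over 12 arrays, Gzma, Cd3g and Ncr1, and 9 without PBS replicate 6. Cd3g, of the T cell receptor complex, was well above background on 6 IL1B arrays and, among PBS arrays, on PBS replicate 6 alone, and was at least 6.85-fold higher without it. Ncr1, a receptor of natural killer cells, was well above background on 3 IL1B arrays and on PBS replicate 6, and was at least 3.88-fold higher without that array. A dimmer probe of Nkg7, of cytotoxic granules, which among PBS arrays was well above background on PBS replicate 6 alone, was called over 12 arrays (limma adjusted p = 0.0242) and was at least 27.2-fold higher without that array, while its brighter probe had a change of 0.11. Cd3e, Cd4 and the B cell gene Cd79a had log2 changes of 0.09, -0.21 and -0.44, and Cd8a was well above background on no array. The Cd3e probe had a mean of 9.76 in CD11B+ and 9.82 in O4+ cells and so does not follow the sort. The summed level of the list was 13.01 to 13.56 in PBS replicates 1 to 5, 13.75 in PBS replicate 6 and 13.34 to 13.83 with IL1B. The part of such cells in the rises of Gzma, Ccl5 and the interferon-induced genes was not tested.

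Astrocyte markers had 1 of 16 higher over 12 arrays, Aldh1l1 at 0.97 ± 0.23 (limma adjusted p = 0.0342), and 9 higher without PBS replicate 6, where Gfap changed by 1.12 ± 0.19 (limma adjusted p = 0.00500). Their summed level was 14.66 to 15.29 in PBS replicates 1 to 5, 14.95 to 15.51 with IL1B and 15.85 in PBS replicate 6, the highest of the 12. Mural and fibroblast markers had 0 of 12 called over 12 arrays and 5 without PBS replicate 6, with sums of 11.47 to 11.83, 11.66 to 12.74 and 12.86 in the same order. For erythroid markers the counts were 0 and 4 of 12, with sums of 16.10 to 16.93, 17.30 to 17.78 and 17.86. In these 3 lists and in the neutrophil list, PBS replicate 6 thus stood past the IL1B arrays, not among them. Border-associated macrophage markers had 1 of 16 higher, Folr2, at 0.77 ± 0.16 (limma adjusted p = 0.0228), and 5 without PBS replicate 6. Neuron markers had 0 higher and 1 lower of 16, Snap25, a synaptic protein, at -0.70 ± 0.09 (limma adjusted p = 0.0137). Without PBS replicate 6 they had 3 higher and 1 lower, the higher ones being Tubb3, Rbfox3 and Gad2. The summed level of the neuron list was lower with IL1B, at 13.69 to 14.11 with PBS and 13.30 to 13.44 with IL1B, without overlap. None of 16 endothelial markers was called over 12 arrays, and 1 rose, Ly6c1, without PBS replicate 6. Among 14 reference genes the median was 0.01 and none was called over 12 arrays, and B2m alone without PBS replicate 6.

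**Figure D4:**
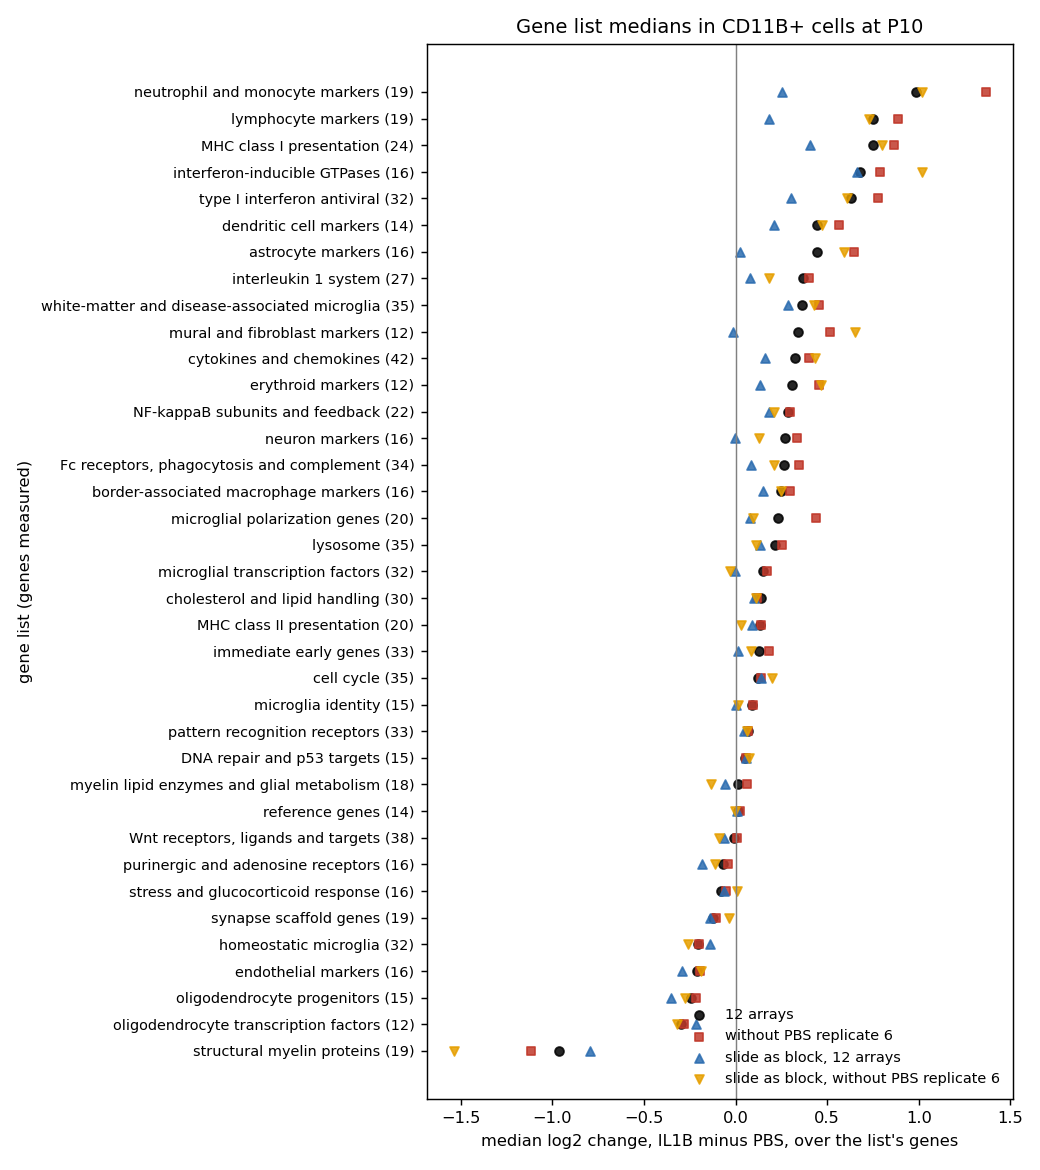
Median log2 change (IL1B minus PBS, CD11B+ cells at P10) over the genes of each list, with the number of genes measured, in 4 fits. Structural myelin genes lie lowest at -0.96 over 12 arrays and -1.12 without PBS replicate 6; the neutrophil and monocyte median is 0.98 and 1.37, and falls to 0.25 with slide as a block over 12 arrays.

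The response at P10 was set against that at P5, when the cells were taken on the day of the last injection. Ages were normalized together, share no array and no slide, and were compared by the interaction term, which 5415 of 22329 genes passed (24.3%). Without PBS replicate 6, 5864 passed. The difference for Gzma was 1.20 with that array and 2.15 without it (limma adjusted p = 0.463 and 1.09e-04). For Ccl5 it was 1.03 and 1.65 (limma adjusted p = 0.331 and 8.65e-05). At P5, 1216 genes were called higher (5.45%) and 1679 lower (7.52%). Cell cycle genes were the clearest case. At P5 27 of 35 fell, with a median of -0.78, at P10 none was called in either direction, with a median of 0.12, and 31 of 35 differed between the ages. Mcm6, of the replication helicase, changed by -1.17 at P5 and by 0.16 ± 0.06 at P10 (limma adjusted p of the difference = 2.46e-08). Of the 19 neutrophil and monocyte markers, 18 rose at P5, with a median of 3.59, and 16 differed between the ages, with smaller changes at P10. The summed level of that list in the P5 IL1B arrays was 18.75 to 19.35, above any P10 array.

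Interferon-inducible GTPases split. Differences passed for 8 of 16, with smaller changes at P10 in each, such as Gbp2 at 3.90 and 1.83 (limma adjusted p of the difference = 0.00358) and Iigp1 at 1.51 and 0.03 (0.0144). Tgtp2 and Gbp8 had changes of 4.48 and 2.61 at P5 and 3.57 and 2.87 at P10, and their differences were not called (limma adjusted p = 0.547 and 0.824). Class I presentation differed at 3 of 24 genes over 12 arrays and at 10 without PBS replicate 6. H2-Q8, outside the list, changed more at P10 (2.52) than at P5 (0.80, limma adjusted p of the difference = 0.0379). White-matter and disease-associated genes differed at 25 of 35. Itgax changed by -0.83 at P5 and by 1.28 at P10, Gpnmb by -0.29 and 1.67, and Ctsz by -0.20 and 0.60 (limma adjusted p of the difference = 1.50e-04, 0.00537 and 3.21e-05). Lgals3 and Axl went the other way, with 2.52 and 2.33 at P5 and 1.05 and 1.37 at P10 (0.00115 and 0.00963). Tnf and Il10 fell at P5, by 0.66 and 1.07 on the log2 scale, and rose at P10 (limma adjusted p of the difference = 1.02e-05 and 1.63e-05).

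Of the 19 structural myelin genes, 10 differed between the ages. Mobp changed by 0.02 at P5 and -2.39 at P10, and Cldn11 by -0.35 and -2.02 (limma adjusted p of the difference = 0.00410 and 0.0105). Mobp was well above background on no CD11B+ array at P5, so its change there was not measured. For Mal, with -1.04 at P5 and -1.89 at P10, the difference was not called (limma adjusted p = 0.271). Hs3st2 fell at both ages and far more at P5, by 5.30 against 2.06 on the log2 scale (limma adjusted p of the difference = 3.73e-05), and was well above background on no IL1B array at P5. Age cannot be told apart from slide and scan day in these differences, beyond what each age's own PBS arrays take up.

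**Figure D5:**
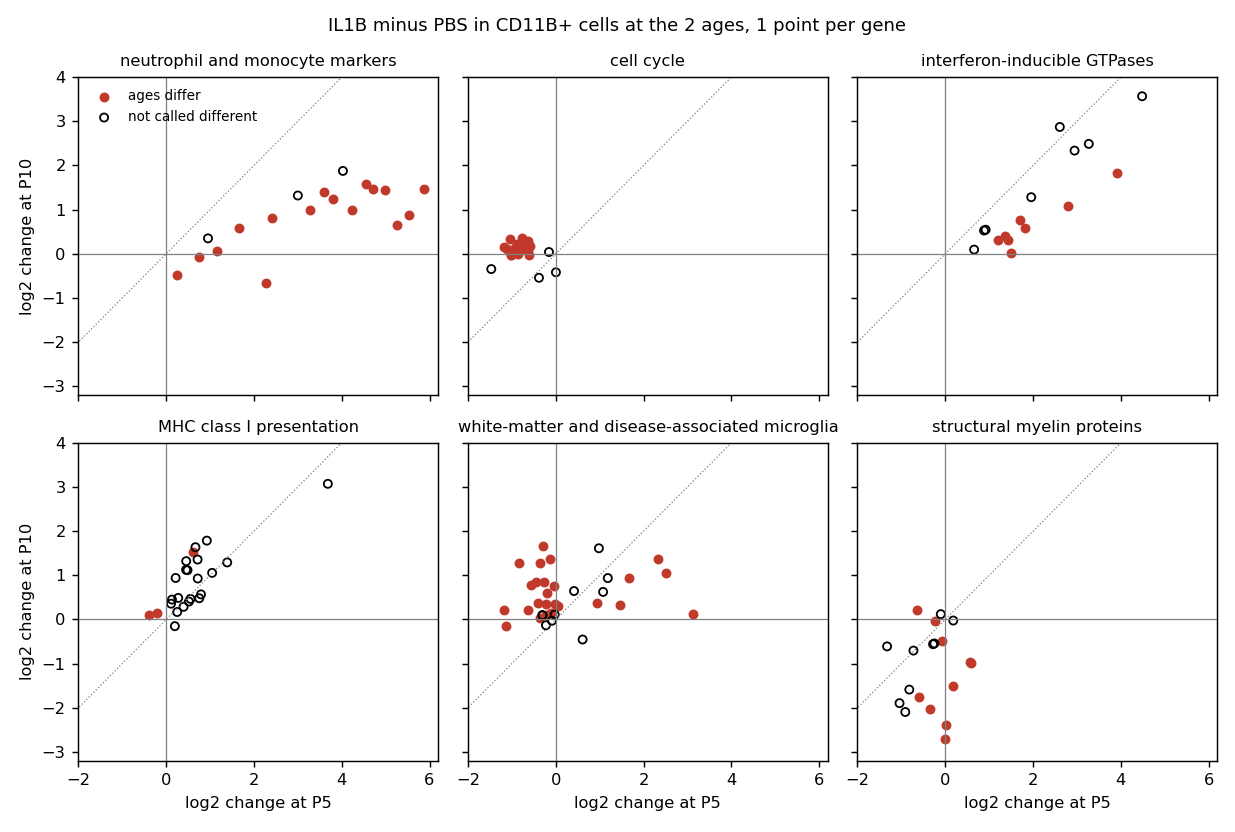
Log2 change (IL1B minus PBS) in CD11B+ cells at P5 (horizontal) and at P10 over 12 arrays (vertical), 1 point per gene for 6 lists; filled points differ between the ages by limma (adjusted p under 0.05) and the dotted line marks equal changes. Neutrophil and cell cycle genes lie away from the line, with 16 of 19 and 31 of 35 filled, and class I genes near it, with 3 of 24 filled.

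Compared with O4+ cells at P10, the response of 2413 of 22329 genes differed (10.8%), after normalizing all 48 arrays together. The arrays of the cell types were treated as independent, although both were taken from the same tissue. Scaling each array to its 75th percentile moved the median difference over all probes from 0.01 to 0.18, so the values are read against that. Ccl5 and Cxcl9 rose more in CD11B+ cells, with differences of 2.37 and 2.29 (limma adjusted p = 0.0210 and 0.0337). For Ccl8, well above background on 1 of 6 O4+ PBS arrays, the difference was -0.61 (limma adjusted p = 0.768), and the median change of the 42 cytokines and chemokines was 0.47 in O4+ and 0.32 in CD11B+ cells. Cd69, Hcar2, Acod1 and Ptger3 were well above background on no O4+ array at P10, so no O4+ response was measured for them. Clec7a rose less in CD11B+ than in O4+ cells, by a difference of -1.92 (limma adjusted p = 0.00664), where its level with PBS had a mean of 4.62. Among structural myelin genes 3 of 19 differed. Mobp changed by -0.61 in O4+ cells, a difference of -1.66 (limma adjusted p = 0.0344). Of the 35 cell cycle genes, 25 differed, with a median change of 0.80 in O4+ and 0.12 in CD11B+ cells. Of the 16 interferon-inducible GTPases, 4 differed, and their medians were 1.14 in O4+ and 0.68 in CD11B+ cells.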

How the data were processed

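RNA of 12 CD11B+ samples at P10 had been labelled with Cy3 and hybridised to 1-colour Agilent arrays. The authors deposited scanner intensities from Feature Extraction, background-subtracted and detrended within each array and not normalized between arrays, in 59305 spots besides controls. They also deposited a matrix that holds, as a ratio, each processed signal over its array's median, which was found by comparison (largest difference 1.86e-05 on the log2 scale). Here log2 processed signals were quantile-normalized over the 24 CD11B+ arrays, or all 48 where cell types are compared, as the methods describe. Spots of one probe were averaged, 278 non-uniform spots were left out over all arrays, and limma 3.58.1 in R 4.3.3 was fitted without covariates to 55681 probes. Calls needed a Benjamini-Hochberg adjusted p under 0.05 together with group medians more than 1.5 times apart. Genes were named through a RefSeq accession (26593 probes) or symbol (4791), 24297 probes had no gene of that table, and a gene is its brightest probe. Named genes were the 12 largest rises and falls among called genes whose groups do not overlap, over 12 and over 11 arrays, and members of 37 lists (839 of 846 entries with a probe). Some of these genes are not reported here. Members and lists were chosen with earlier results of these data known. The number of arrays, 6 in each group, limits the precision, and no source says that arrays of a group are separate litters, so p-values measure the spread between these samples. The fit was tested on simulated data. Promoters were searched in Python 3.11.15.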

Additional observations from a re-analysis of the deposited data

Results flagged for a closer look

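In 21 of 43 named probes, which read 42 genes, 1 array stood apart from the other 5 of its group by Dixon's gap ratio, the gap to the nearest array over the range of the group, and in each it was the library labelled PBS replicate 6. Chance gives about 1 such array in 20 groups, a rate that cannot be read against this count, since 14 of the 21 probes are only in the list chosen without that array and 7 in the list over 12 arrays. The ratios were 0.903 for Serpina3g, 0.894 for Cxcl9, 0.871 for Gzma, 0.87 for Ccl5, 0.868 for Gbp4, 0.823 for Tnfaip2, 0.815 for Khdrbs3, 0.813 for Hs3st2, 0.802 for P2ry2, 0.798 for Chil3 and 0.786 for Tgtp2. Lower ratios past the critical value were those of Ccl8 (0.753), Clec7a (0.744), Acod1 (0.735), Axl (0.732), Hcar2 (0.725), Shtn1 (0.718), Ptger3 (0.714), Lrba (0.702), H2-Q8 (0.683) and Prkcq (0.666). The reason was not tested.

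For 14 named genes the log2 change at P10 differed from that at P5 in CD11B+ cells by limma's interaction term, with PBS replicate 6 kept. Each of them also passed without that array, where further named genes such as Gzma and Ccl5 did. It was more positive at P10 for Hs3st2 (3.24), Fam20c (2.08), H2-Q8 (1.72), Cmya5 (1.18), Duoxa1 (1.00) and Arl5c (0.784). It was more negative at P10 for Mobp (-2.41), Acod1 (-2.29), Sgk2 (-1.93), Cldn11 (-1.67), Tspan2 (-1.16), Elovl7 (-1.03), Axl (-0.956) and P2ry2 (-0.926). Mobp and Sgk2 were well above background on no P5 array, so their values rest on P10 alone.

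For 16 named genes the log2 change at P10 differed between CD11B+ and O4+ cells by the same kind of test, again with PBS replicate 6 kept. Each of them also passed without that array, where further named genes such as Serpina3g and Gzma did. It was more positive in CD11B+ cells for Ccl5 (2.37), Cxcl9 (2.29), Acod1 (1.97), Hcar2 (1.59), P2ry2 (1.40), Fam20c (1.26), Shtn1 (1.25) and Cd69 (1.18). It was more negative there for Ptger3 (-2), Clec7a (-1.92), Khdrbs3 (-1.82), Mobp (-1.66), Cacna1g (-1.41), Duoxa1 (-1.38), Cldn11 (-1.27) and Prkcq (-1.25). Acod1, Hcar2, Cd69 and Ptger3 were well above background on no O4+ array at P10, so for these genes no O4+ response was measured and the value is not read as a difference between the cell types.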

How the results depend on the processing

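The 605 higher and 604 lower probes became 1863 and 1758 with no fold threshold, 1083 and 1195 with array weights, 708 and 386 on the deposited matrix, 389 and 383 with scan day as a block, 62 and 58 with slide as a random block, 4 and 36 within the slide that holds both groups, and 0 and 2 with slide as a fixed block (165 and 105 without PBS replicate 6, an alternative chosen after seeing the data, with PBS replicate 5 as the lone control on the shared slide). Without single arrays they ranged from 212 to 1415 and from 199 to 1323. Under 8 other settings, among them 75th percentile scaling, normexp and the methods' equal-variance test (462 and 438 after Benjamini-Hochberg, 1426 and 1678 at an unadjusted p under 0.05 with the ratio), they stayed within 1.5 times. Named probes, chosen from these same arrays, kept their direction in all 45 cases under each of these settings. The 43 of them that were called over 12 arrays all lost the call with slide as a fixed block. The other 2, Chil3 and Lrba, were called in neither fit.

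The 5872 probes more positive and 3506 more negative at P10 than at P5 became 1542 and 1054 with slide as a fixed block and 4289 and 2251 as a random one, and ranged from 5253 to 6147 and from 2902 to 4128 without single arrays. The 2030 and 2181 probes that differed between CD11B+ and O4+ cells became 8599 and 2042 with 75th percentile scaling, 1276 and 1051 with slide as a fixed block and 1275 and 1389 as a random one, and ranged from 1577 to 2424 and from 1782 to 2450.

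Replicate numbers did not pair the PBS with the IL1B arrays of CD11B+ cells at P10. Their same-numbered deviations correlated at -0.04 to 0.10, with 0 of 6 pairs over 0.1. Whether a number ties a CD11B+ array to the O4+ array of the same tissue was not tested. With the replicate block, 346 probes were called higher and 440 lower, 5876 and 3624 differed from P5, and 3085 and 3102 from O4+ cells. 1 of the 6 PBS arrays correlated best with its own number.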

Other observations

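Lists not described so far had at most 2 called genes each over 12 arrays in CD11B+ cells at P10. Beside 1.51% of all genes, 12.5% of purinergic and adenosine receptors, 6.06% of immediate early genes and 6.67% of cholesterol and lipid genes rose. Of 16 purinergic and adenosine receptors, 2 rose, P2ry2 and P2ry14, a receptor for UDP sugars, with a log2 change of 0.74 ± 0.18 for P2ry14 (limma adjusted p = 0.0351), which read 5.00, 5.45 and 6.15 with PBS and 5.93, 6.33 and 6.41 with IL1B. Of 33 immediate early genes, 2 rose, Cd69 and Dusp5, a nuclear phosphatase of ERK, at 0.83 ± 0.18 (limma adjusted p = 0.0281), and 6 rose without PBS replicate 6. Of 30 genes of cholesterol and lipid handling, 2 rose, Plin2, a lipid droplet coat protein, at 0.78 ± 0.12 and Nceh1, a cholesterol ester hydrolase, at 0.69 ± 0.12 (limma adjusted p = 0.0137 and 0.0164). Their medians were -0.07, 0.13 and 0.14.

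Of 38 Wnt receptors, ligands and targets, 1 fell, the receptor Fzd4, which read 9.40, 9.87 and 10.06 with PBS and 9.08, 9.15 and 9.25 with IL1B, a log2 change of -0.63 ± 0.10 (limma adjusted p = 0.0149), and the median was -0.01. Without PBS replicate 6 the targets Axin2 and Nkd2 fell too, at -1.37 ± 0.35 and -1.22 ± 0.26, and Dkk3 and Wnt7b rose (limma adjusted p = 0.0274 and 0.0138 for the falls). Of 16 stress and glucocorticoid genes, Sgk1, a kinase induced by glucocorticoids, fell by 0.66 on the log2 scale (limma adjusted p = 0.0145) and none rose. None of 19 synapse scaffold genes, 15 DNA repair and p53 target genes and 12 oligodendrocyte transcription factors was called over 12 arrays, and of 35 lysosome genes Ctsz alone rose. The summed level of the synapse scaffold genes was 14.15 to 14.30 with PBS and 13.91 to 14.12 with IL1B, without overlap. The 20 polarization genes had 1 higher over 12 arrays, Lgals3, and 4 without PBS replicate 6, beside 3.76% of all genes in that fit.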
